A study of Homo sapiens with 6 samples.

Results

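The constant regions of immunoglobulin genes and the J chain were followed in the human myeloma cell line MOLP-8, an established line, with and without targeting of LIN28B. The 10 genes were chosen by name: the heavy chain constant genes IGHM, IGHD, IGHG1, IGHA1 and IGHE, the light chain constant genes IGKC, IGLC1, IGLC2 and IGLC3, and IGJ, the older symbol of JCHAIN. All 10 were found, each as a single row with a usable estimate in every library, among 57886 genes in the tables. Expression was measured by RNA sequencing in 6 libraries. The 3 control libraries came from cells transduced with a scrambled guide in the lentiviral CRISPR vector lentiCRISPRv2. The 3 LIN28B KO libraries came from cells transduced with the same vector carrying a guide against LIN28B, which encodes a protein that binds the precursors of let-7 microRNAs and keeps them from maturing. The condition labels call these cells LIN28B KO, and the titles abbreviate them as KD. All cells were selected with puromycin at 1 µg/mL, and all come from a single cell line. The labels do not say whether replicates were independent cultures, so the p-values below measure only the spread among these 6 libraries, which may be technical.

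Levels are given in FPKM, in which the fragments of a gene are divided by its length and by the size of the library, so that genes can be compared. An antibody joins heavy chains to light chains, and the constant gene used by the heavy chain sets the isotype: IGHM gives IgM, IGHD gives IgD, IGHG1 gives IgG, IGHA1 gives IgA and IGHE gives IgE. Light chains are kappa (IGKC) or lambda (the IGLC genes). IGHM and IGHD lie next to each other and are normally read into a shared primary transcript, and plasma cells that secrete only IgD can also have lost IGHM by recombination. The J chain is a small protein that links IgM or IgA units into polymers, and plasma cells can make it whatever their isotype. MOLP-8 is known as a line of the IgD lambda type.

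The libraries were first set against their labels. LIN28B was at 23.3, 24.3 and 25.5 FPKM in the controls, against 8.41, 8.17 and 5.84 FPKM with the LIN28B guide, so the groups did not overlap. The plasma cell markers fixed for this check, among them SDC1, CD38 and TNFRSF17, summed to 2966 to 3032 FPKM in the controls and to 1989 to 2944 FPKM in the KO libraries. Within that list SLAMF7, a surface receptor of plasma cells named after its values were seen, was at 51.6, 41.9 and 49.7 FPKM in control cells and at 92.8, 89.8 and 66.3 FPKM in KO cells, with no overlap (limma adjusted p = 0.235, 0.0482 without KO library 3 and 0.0143 after cyclic loess normalization). TNFRSF17, the B cell maturation antigen, also picked after its values were seen, was at 118 to 132 FPKM in control cells and 126 to 168 FPKM in KO cells (limma adjusted p = 0.420, and 0.0390 after cyclic loess). With the deposited scaling, more of the list went the other way. In 4 of the 8 markers the groups did not overlap with KO lower, against 20.1% of all tested genes, and in 1 with KO higher. The list had a median log2 fold change of -0.18 with all libraries and -0.01 without KO library 3. After cyclic loess it was 0.10, so the direction of the list depended on the scaling. CD38 was at 449, 450 and 424 FPKM in control cells and at 390, 402 and 266 FPKM in KO cells (limma adjusted p = 0.419, and 0.389 after cyclic loess). The mature B cell list summed to at most 5.08 FPKM, with MS4A1 listed at 0 throughout. The T and NK cell, myeloid and erythroid lists each summed to at most 1.44 FPKM in any library. LIN28B KO library 3 stood apart: its abundant transcripts were lower in general. Across 84 tested genes averaging at least 1000 FPKM in the controls, log2 ratios to the control mean had a median of -0.15 in LIN28B KO library 1, -0.15 in library 2 and -0.71 in library 3. Results are therefore given with and without that library.

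MOLP-8 made IgD heavy chain and lambda light chain mRNA. IGHD (gene ENSG00000211898, chromosome 14, 106303099 to 106312010 in GRCh37; the deposited locus spans the exons and introns of the gene) was at 9470, 9400 and 9319 FPKM in control cells, and KO cells had 9231, 9435 and 6139 FPKM. IGLC1 (ENSG00000211675, chromosome 22, 23237555 to 23238014) was at 17246, 14366 and 21223 FPKM in control libraries 1 to 3 and stood at 20899, 21877 and 13904 FPKM in LIN28B KO libraries 1 to 3. IGJ (ENSG00000132465, chromosome 4, 71521258 to 71547534) was at 10951, 11130 and 12586 FPKM in the controls, against 13920, 12683 and 9025 FPKM with the LIN28B guide. For all 3 genes LIN28B KO library 3 was the lowest of the 6 libraries. By control mean IGLC1 came before IGJ and IGJ before IGHD, and among all genes with usable estimates a single row lay above them. That row, D86994.1, is a model of 95 bases inside the variable segment IGLV2-23, and is described with that segment. Without this row, IGHD, IGLC1 and IGJ together held 5.50%, 5.19% and 6.31% of the summed FPKM in the controls and 6.66%, 6.63% and 5.65% in the KO libraries.

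**Figure D1:**
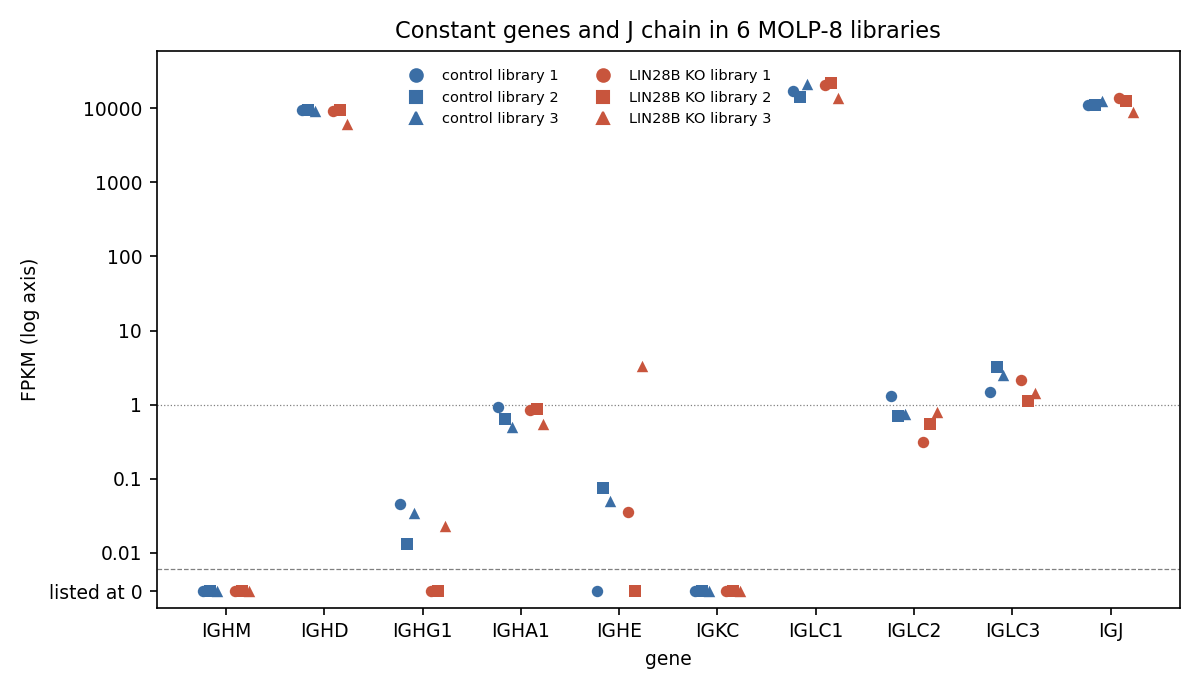
FPKM on a log axis of the 10 genes in the 3 control libraries (blue) and the 3 LIN28B KO libraries (red), 1 point per library; points under the dashed line are listed at 0, and the dotted line marks 1 FPKM. IGHD, IGLC1 and IGJ lie between 6139 and 21877 FPKM in every library, and the other 7 genes lie at or under 3.33 FPKM.

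The other heavy chain constant genes were at or near 0. IGHM (ENSG00000211899, chromosome 14, 106320349 to 106322323) was listed at 0 in all 6 libraries. A listed 0 can be an estimate that failed silently, and 35.0% of all genes were listed at 0 in every library. On the same chromosome, IGHG1 (ENSG00000211896, 106202680 to 106209408) ranged from 0 to 0.0461 FPKM and had a listed value of 0 in KO libraries 1 and 2. IGHA1 (ENSG00000211895, 106173457 to 106175002) was at 0.924, 0.637 and 0.496 FPKM in control cells, and KO cells had 0.854, 0.881 and 0.551 FPKM, so the groups overlapped. IGHE (ENSG00000211891, 106064224 to 106068065) was at most 0.0752 FPKM in 5 libraries and was at 3.33 FPKM in LIN28B KO library 3. The deposited bounds of that last value ran from 0 to 11.5 FPKM, so it was not distinguishable from 0 at this depth.

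IGHD made up 99.94% to 99.99% of the summed FPKM of the 5 heavy chain genes in every library. The remainder was 0.0102%, 0.00771% and 0.00623% in the controls and 0.00963%, 0.00934% and 0.0635% in the KO libraries, the last from the IGHE value just described. The difference between the groups in the IGHD share was -0.0194 percentage points (exact two-sided permutation test, p = 0.3; the smallest p that 3 against 3 libraries allow is 0.1). Without LIN28B KO library 3 the difference was -0.00142 percentage points. Over all 11 heavy chain constant genes and pseudogenes in the tables, IGHD still held 99.85% to 99.91%. On this wider sum the groups did not overlap: the remainder was 0.0967%, 0.0888% and 0.101% in the controls and 0.126%, 0.106% and 0.149% in the KO libraries. The difference in the IGHD share was then -0.0311 percentage points (exact two-sided permutation test, p = 0.1). In LIN28B KO library 3 this remainder again included IGHE at 3.33 FPKM, beside IGHA2 at 5.23 FPKM. The lack of overlap on the wider sum therefore rests on an IGHE value that was not distinguishable from 0.

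Light chain expression was lambda, and within lambda it was IGLC1. IGKC (ENSG00000211592, chromosome 2, 89156674 to 89157196), the kappa constant gene, was listed at 0 in all 6 libraries. IGLC2 (ENSG00000211677, chromosome 22, 23243156 to 23243617) was at 1.30, 0.701 and 0.749 FPKM in control libraries 1 to 3 and stood at 0.310, 0.554 and 0.792 FPKM in LIN28B KO libraries 1 to 3. IGLC3 (ENSG00000211679, chromosome 22, 23248512 to 23248973) was at 1.50, 3.23 and 2.50 FPKM in the controls, against 2.16, 1.11 and 1.45 FPKM with the LIN28B guide. In both genes the groups overlapped. IGLC1 held 99.97% to 99.99% of the light chain sum, with a difference between the groups of 0.00776 percentage points (exact two-sided permutation test, p = 0.2). It was 0.0039 percentage points without control library 2, and 0.0047 over all 8 light chain constant genes (exact permutation p = 0.7).

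The lambda constant genes are close copies of each other, so reads can be shared between them, and their sequences are shown for that reason. The first 120 coding bases are given 5′ to 3′ on the plus strand of GRCh38, from GENCODE 29 transcripts matched by gene identifier, and capitals mark bases that differ from IGLC1:
IGLC1: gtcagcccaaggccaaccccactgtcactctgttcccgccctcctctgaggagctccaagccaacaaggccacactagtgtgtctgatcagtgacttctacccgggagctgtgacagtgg
IGLC2: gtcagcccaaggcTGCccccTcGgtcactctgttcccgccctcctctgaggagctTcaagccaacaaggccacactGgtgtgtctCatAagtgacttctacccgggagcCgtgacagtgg
IGLC3: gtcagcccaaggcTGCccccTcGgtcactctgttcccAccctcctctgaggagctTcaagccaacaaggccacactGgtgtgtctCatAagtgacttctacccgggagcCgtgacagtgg
IGLC7: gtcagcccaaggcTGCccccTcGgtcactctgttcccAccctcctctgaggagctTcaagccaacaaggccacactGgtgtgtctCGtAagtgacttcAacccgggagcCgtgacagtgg
Over the 317 coding bases IGLC2 differed from IGLC1 at 15, IGLC3 at 16 and IGLC7 at 20. The longest stretch shared without a difference was 90 bases for IGLC2, 70 for IGLC3 and 64 for IGLC7. The levels of IGLC2 and IGLC3 beside IGLC1 are therefore uncertain, because a read inside a shared stretch cannot be assigned to a single gene and read lengths were not used here. The IGLC1 row also lies inside the last exon of IGLL5, a gene related to the surrogate light chain, which was at 318, 315 and 331 FPKM in control cells, and KO cells had 355, 365 and 245 FPKM. Reads of IGLC1 and IGLL5 cannot be told apart in that exon.

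The precision of the estimates differed between the 3 abundant genes. The deposited upper bound lay 0.255% to 0.354% above the estimate for IGHD, 2.81% to 2.95% for IGJ and 4.15% to 4.17% for IGLC1. Which errors these bounds cover is not stated, and for IGLC1 they hardly moved while its level ran from 13904 to 21877 FPKM. Each bound belongs to a single library, so it does not cover the spread between libraries. Fragments counted without molecular barcodes may be copies of the same molecule. Among the controls, IGHD varied least, at 9396 ± 75.9 FPKM (SD, n = 3). IGJ was at 11556 ± 897 FPKM (SD, n = 3) and IGLC1 at 17612 ± 3443 FPKM (SD, n = 3). The order of the levels, IGLC1 over IGJ over IGHD, was the same in all 6 libraries.

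LIN28B KO and control cells were then compared with limma over 15803 genes with at least 1 FPKM in at least 3 libraries, on log2(FPKM + 0.5). Of the 10 members, 4 passed this filter: IGHD, IGLC1, IGLC3 and IGJ. None of the 4 passed the threshold (Benjamini-Hochberg adjusted p under 0.05), against 0.0949% of all tested genes, and 0 of the 4 had an unadjusted p under 0.05. The groups overlapped in all 4, whereas they did not overlap in 27.7% of tested genes. The median log2 fold change was -0.10 over the 4 members and -0.13 over all tested genes.

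IGHD had a log2 fold change of -0.21 (SE 0.23, limma adjusted p = 0.657), with a 95% interval of 0.593-fold to 1.26-fold. The KO mean was 8268 ± 1847 FPKM (SD, n = 3), and its spread came from library 3, at 65.3% of the control mean. Without that library the IGHD level was 99.3% of the control mean, with a log2 fold change of -0.01 (SE 0.03, limma adjusted p = 0.882) and a 95% interval of 0.944-fold to 1.05-fold. In LIN28B KO library 3 the log2 ratio of IGHD was -0.61, and 64 of the 84 abundant genes were lower still.

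IGLC1 had a log2 fold change of 0.09 (SE 0.28, limma adjusted p = 0.881), with a 95% interval of 0.679-fold to 1.67-fold. Its KO mean was 18894 ± 4348 FPKM (SD, n = 3). Without LIN28B KO library 3 the level was 121% of the control mean and the log2 fold change was 0.30 (SE 0.16, limma adjusted p = 0.365). Control library 3, at 21223 FPKM, lay between the other KO libraries, so the groups overlapped there too.

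IGJ had a log2 fold change of 0.02 (SE 0.24, limma adjusted p = 0.977), with a 95% interval of 0.689-fold to 1.49-fold. Its KO mean was 11876 ± 2545 FPKM (SD, n = 3). LIN28B KO libraries 1 and 2 were above all controls, and library 3 was below all of them. Without library 3 the level was 115% of the control mean, and the log2 fold change was 0.20 (SE 0.08, unadjusted p = 0.0412, limma adjusted p = 0.231). In that fit 19.8% of all tested genes had an unadjusted p under 0.05, and 0.417% passed after adjustment. IGLC3, the 4th gene tested, had a log2 fold change of -0.47 (SE 0.31, limma adjusted p = 0.475). At this low level its deposited upper bound lay 41.9% to 81.6% above the estimate.

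Because library 3 was lower for abundant genes in general, the same fit was made after cyclic loess normalization, in which level-dependent differences between libraries are smoothed out. The 3 abundant genes then moved up. IGHD stood 0.10, 0.12 and 0.13 above the control mean (log2) in LIN28B KO libraries 1 to 3, against -0.02 to 0.02 in the controls. IGLC1 had ratios of 0.40, 0.44 and 0.44 in the KO libraries and of -0.05, -0.26 and 0.30 in the controls. IGJ had ratios of 0.40, 0.25 and 0.40 in the KO libraries and of -0.11, -0.03 and 0.14 in the controls. On this scale every KO library lay above every control for these 3 of the 4 tested members, against 13.7% of all tested genes with such a separation upward and 27.0% with one in either direction. The log2 fold changes were 0.12 (SE 0.03) for IGHD, 0.43 (SE 0.13) for IGLC1 and 0.35 (SE 0.07) for IGJ. Their unadjusted p-values were 0.00333, 0.0169 and 0.00304, while 18.1% of all genes had an unadjusted p under 0.05. After adjustment over all genes none passed in limma (adjusted p = 0.106, 0.186 and 0.102), against 0.702% of all genes. Few genes are as abundant as these, so the loess curve rests on few points there.

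**Figure D2:**
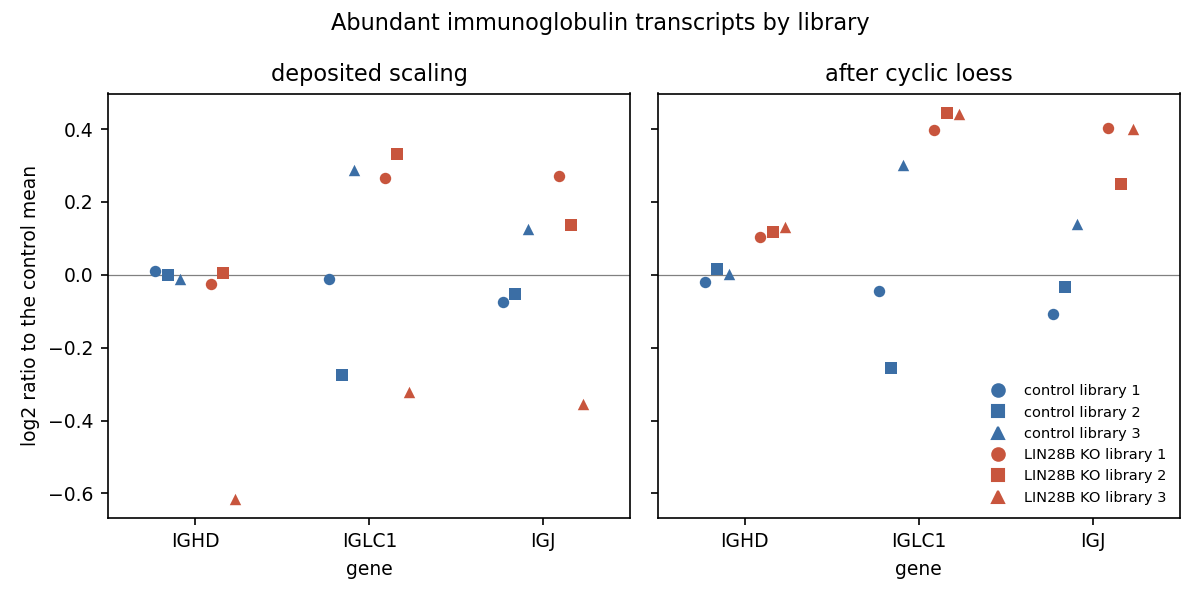
Log2 ratio to the control mean of IGHD, IGLC1 and IGJ in each library, with the deposited scaling (left) and after cyclic loess (right); 1 point per library. On the left LIN28B KO library 3 is the lowest point of each gene, at -0.61 for IGHD; on the right the 3 KO libraries lie above the controls, at 0.10 to 0.13 for IGHD.

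Ratios between transcripts of the same library do not depend on the scaling between libraries, and 5 were computed after the levels had been seen. The ratio of IGLC1 to IGHD, light to heavy chain, was 1.82, 1.53 and 2.28 in the controls and 2.26, 2.32 and 2.26 in the KO libraries. LIN28B KO library 3 did not stand apart in this ratio. The means were 1.88 ± 0.378 (SD, n = 3) and 2.28 ± 0.0314 (SD, n = 3), and the groups overlapped because of control library 3 (exact two-sided permutation test, p = 0.3, adjusted over 5 ratios 0.5). Without that control the difference between the group means was 0.608, and with all libraries it was 0.407. The ratio of IGJ to IGHD was 1.16, 1.18 and 1.35 in the controls and 1.51, 1.34 and 1.47 in the KO libraries. KO cells had a mean 1.17 times that of the controls, with a narrow overlap between control library 3 and KO library 2 (exact two-sided permutation test, p = 0.2, adjusted 0.5).

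**Figure D3:**
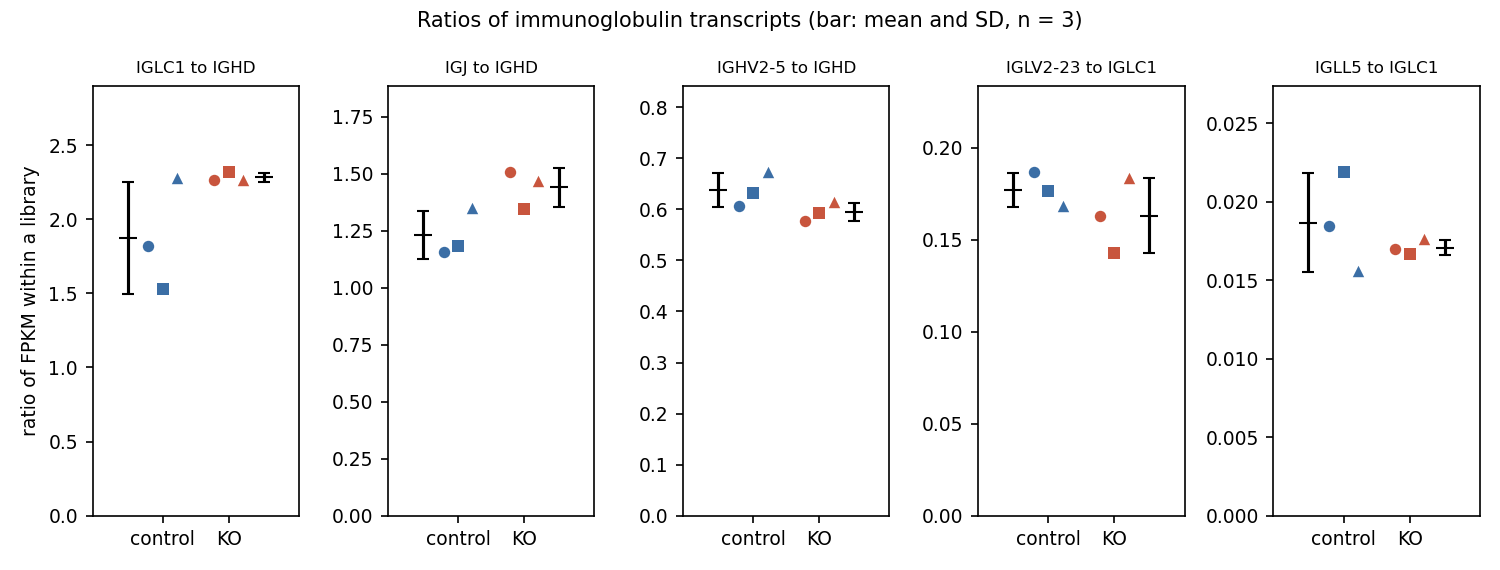
Ratios of FPKM between 2 immunoglobulin transcripts within each library, 1 panel per ratio, with control libraries in blue and LIN28B KO libraries in red (circle, square and triangle for libraries 1, 2 and 3); black bars show the mean and SD of 3 libraries. The groups overlap in all 5 panels, narrowly so for IGJ to IGHD (1.16 to 1.35 in control, 1.34 to 1.51 in KO).

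A single variable segment led on the heavy chain side and another on the light chain side. Each B cell clone joins a V segment to its constant region, and the V segment is then part of the same mRNA. Of 147 IGHV rows, IGHV2-5 (chromosome 14, 106494135 to 106494597) held 85.6% to 89.5% of the class sum in each library. It was at 5749, 5938 and 6275 FPKM in control libraries 1 to 3 and stood at 5333, 5594 and 3770 FPKM in LIN28B KO libraries 1 to 3, and all KO values lay below all control values. Its log2 fold change was -0.31 (SE 0.21, limma adjusted p = 0.494), and without LIN28B KO library 3 it was -0.13 (SE 0.05, limma adjusted p = 0.230). After cyclic loess it was 0.01 (limma adjusted p = 0.926), so the separation depended on the scaling. Relative to IGHD in the same library, IGHV2-5 was at 0.607, 0.632 and 0.673 in the controls and at 0.578, 0.593 and 0.614 in the KO libraries (exact two-sided permutation test, p = 0.2).

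IGHV2-70 (chromosome 14, 107178820 to 107179338) followed with 8.19% to 9.48% of the IGHV sum, at 569, 561 and 675 FPKM in the controls, against 573, 589 and 361 FPKM with the LIN28B guide. It belongs to the same V family as IGHV2-5, and the start of the second coding exon is shown for both because reads can be shared between them. The 120 bases are those of the germline reference (GENCODE 29, GRCh38, minus strand, 5′ to 3′), not of the rearranged genes of the line, and capitals mark bases that differ from IGHV2-5. The identifier of the IGHV2-70 row carries the name IGHV2-70D in GENCODE 29:
IGHV2-5: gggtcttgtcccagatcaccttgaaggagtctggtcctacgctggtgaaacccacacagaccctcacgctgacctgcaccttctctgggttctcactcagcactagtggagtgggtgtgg
IGHV2-70: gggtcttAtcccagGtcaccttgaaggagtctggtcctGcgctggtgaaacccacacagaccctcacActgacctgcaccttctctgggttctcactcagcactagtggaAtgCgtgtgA
Over the 358 coding bases the segments differed at 27, and the longest shared stretch without a difference was 67 bases. Whether IGHV2-70 was used by the cells or received reads of IGHV2-5 was not tested.

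On the light chain side, IGLV2-23 (chromosome 22, 23040274 to 23040892) held 99.2% to 99.6% of the sum of 76 IGLV rows. It was at 3225, 2535 and 3570 FPKM in control cells, and KO cells had 3405, 3131 and 2552 FPKM (log2 fold change -0.03, SE 0.21, limma adjusted p = 0.946). Control library 2 and LIN28B KO library 3 were lowest, as they were for IGLC1. Relative to IGLC1 it was at 0.187, 0.176 and 0.168 in the controls and at 0.163, 0.143 and 0.184 in the KO libraries (exact two-sided permutation test, p = 0.4). The short row D86994.1 inside IGLV2-23 had listed values of 128186 and 106505 FPKM for control libraries 1 and 3 and of 130845 and 86108 FPKM for KO libraries 1 and 3. For control library 2 and KO library 2 it was listed at 6.23e-07 and 1.50e-07 FPKM. Its level therefore jumped between libraries of the same group, and the low library was number 2 in both groups, for which the cause was not tested. Reads of IGLV2-23 and of this model cannot be told apart. All 102 IGKV rows together summed to at most 2.23 FPKM in any library.

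The constant genes outside the 10 members were low. Of the 10 other constant genes and pseudogenes, 4 passed the filter (IGHA2, IGLC5, IGLC6 and IGLC7, named after their values were seen), and 0 passed the threshold in limma. IGHA2, the second IgA constant gene, was at 7.50, 7.46 and 8.49 FPKM in control libraries 1 to 3 and stood at 10.5, 8.01 and 5.23 FPKM in LIN28B KO libraries 1 to 3, well above IGHA1. IGLC6 was at 3.62, 5.42 and 6.31 FPKM in the controls, against 9.82, 8.97 and 7.06 FPKM with the LIN28B guide, so that the groups did not overlap (log2 fold change 0.72, SE 0.23, limma adjusted p = 0.304). IGLC7 was at 15.0, 12.4 and 17.4 FPKM in control cells, and KO cells had 15.6, 21.3 and 3.98 FPKM. The joining segment IGLJ2 was at 1.46, 2.06 and 3.57 FPKM in the controls and listed at 0 in the 3 KO libraries. It passed the filter through the controls alone, and the deposited lower bound was 0 in each of them, so it was not distinguishable from 0 and no test of it is given.

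RNA was also detected between IGHM and the heavy chain joining segments, although IGHM itself was listed at 0. The tables hold 8 short models in that stretch, and 6 of them were listed at 0 in every library. The microRNA precursor hsa-mir-4537 (chromosome 14, 106325653 to 106325722) was at 983, 836 and 964 FPKM in control libraries 1 to 3 and stood at 1102, 465 and 1020 FPKM in LIN28B KO libraries 1 to 3. AL122127.4 (106324723 to 106324792) was at 138, 77.5 and 105 FPKM in the controls, against 130, 105 and 75.2 FPKM with the LIN28B guide. The groups overlapped in both. The deposited lower bound was above 0 in all 6 libraries for hsa-mir-4537, whereas for AL122127.4 it was 0 in 5 of 6, so the latter was not distinguishable from 0 there. Both models are 70 bases long, and per-length values of such short models are uncertain, so the hsa-mir-4537 row shows reads at that place and not the amount of a microRNA.

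Genes that act with immunoglobulins were read from the same fit, and 0 members of the 7 lists were called in limma. Of 16 genes of immunoglobulin transcription and mRNA processing, 13 were tested, with a median log2 fold change of -0.25 with all libraries, -0.18 without LIN28B KO library 3 and 0.04 after cyclic loess. XBP1, a transcription factor of secretory cells, was at 1042, 1013 and 1049 FPKM in control cells, and KO cells had 974, 1011 and 669 FPKM. IRF4, a plasma cell transcription factor, was at 356, 350 and 347 FPKM in control libraries 1 to 3 and stood at 354, 363 and 263 FPKM in LIN28B KO libraries 1 to 3. CSTF2, a subunit of the factor that cleaves mRNA 3′ ends, had the smallest p of the list, at 11.1, 13.8 and 12.0 FPKM in control cells against 8.67, 9.75 and 8.75 FPKM in KO cells (log2 fold change -0.42, SE 0.14, limma adjusted p = 0.314). HNRNPLL and PTBP1, RNA-binding proteins that act on splicing, had log2 fold changes of -0.30 and -0.40 (limma adjusted p = 0.373 and 0.353).

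The machinery of folding, assembly and export was abundant and was not called. All 28 listed genes were tested, with a median log2 fold change of -0.14 against -0.13 for all genes, and of 0.02 against -0.02 without LIN28B KO library 3. After cyclic loess it was 0.12 against 0.00, so its sign depended on the scaling. P4HB, a protein disulfide isomerase, was at 3299, 3276 and 2950 FPKM in the controls, against 3388, 3329 and 2422 FPKM with the LIN28B guide. TXNDC5, another member of that enzyme family, was at 2428, 2459 and 2437 FPKM in control cells, and KO cells had 2743, 2766 and 1911 FPKM. TXNDC5 passed the threshold after cyclic loess and not with the deposited scaling (log2 fold change 0.31, limma adjusted p = 0.0281). MZB1, an endoplasmic reticulum cofactor of plasma cells, was at 624, 611 and 622 FPKM in control libraries 1 to 3 and stood at 565, 528 and 346 FPKM in LIN28B KO libraries 1 to 3 (log2 fold change -0.40, SE 0.21, limma adjusted p = 0.411).

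Class switching and hypermutation genes had the lowest median of the lists, at -0.38 over 9 tested of 10 members, and -0.30 without LIN28B KO library 3. In 8 of the 9 the groups did not overlap, with KO lower, against 20.1% of all tested genes. After cyclic loess the list median was -0.15, against 0.00 for all genes. EXO1, an exonuclease of mismatch repair, was at 24.2, 29.4 and 30.3 FPKM in the controls, against 18.3, 18.6 and 21.5 FPKM with the LIN28B guide (log2 fold change -0.51, SE 0.14, limma adjusted p = 0.289). UNG, a uracil glycosylase, had a log2 fold change of -0.61 (SE 0.20, limma adjusted p = 0.306). Both genes also act in DNA replication and repair of dividing cells.

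Partners of membrane immunoglobulin were unequal. CD79B, a signalling chain of the B cell receptor, was at 31.5, 33.2 and 34.0 FPKM in control libraries 1 to 3 and stood at 29.5, 33.0 and 20.8 FPKM in LIN28B KO libraries 1 to 3. Its partner CD79A, named after its values were seen, was at 1.87, 1.05 and 1.43 FPKM in the controls, against 1.03, 1.61 and 1.29 FPKM with the LIN28B guide. Of the 6 listed partners 4 were tested, and their median log2 fold change was -0.18. LYN, a kinase that acts on the receptor, had a log2 fold change of -0.36 (SE 0.20, limma adjusted p = 0.417). The surrogate light chain list held IGLL1, at 1.02 to 2.81 FPKM, and IGLL5, given with IGLC1 above, while VPREB1 and VPREB3 stayed under 1 FPKM. Of 6 immunoglobulin receptors 2 were tested, and FCRL5, a receptor of the Fc receptor-like family, was at 2.53, 2.78 and 2.78 FPKM in control cells, and KO cells had 3.11, 3.50 and 1.76 FPKM.

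**Figure D4:**
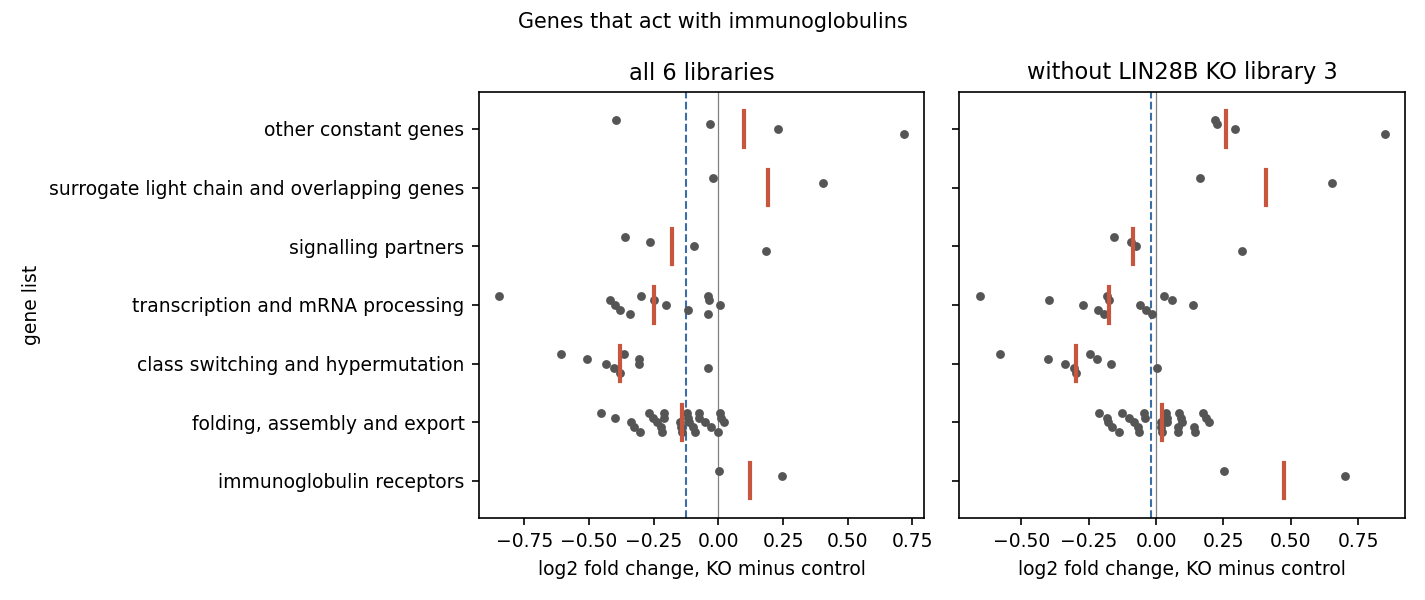
Each tested gene of 7 lists by its log2 fold change, KO minus control (grey points, shifted vertically for legibility), with all 6 libraries (left) and without LIN28B KO library 3 (right). Red bars are list medians and the blue dashed line is the median of all tested genes (-0.13 and -0.02); the class switching list has the lowest median in both panels, at -0.38 and -0.30.

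The genes whose levels over the 6 libraries were most like those of the abundant members were found by Pearson correlation of log2(FPKM + 0.5) among 5438 genes with a mean of at least 20 FPKM. These correlations describe 6 libraries that share a library effect, and carry no test. For IGHD the 5 nearest genes were WDR45B, APRT, TRABD, SERP1 and PRDX5, with r of 0.998 to 0.999. Without LIN28B KO library 3 their r fell to between 0.340 and 0.855, so that library carried the likeness. For IGLC1 they were RAPGEF2, PRMT7, DNAJB9, ST6GALNAC6 and ERN1, with r of 0.974 to 0.985, and of 0.978 to 0.992 without that library. DNAJB9, a chaperone cofactor of the endoplasmic reticulum, was at 77.0, 71.6 and 88.3 FPKM in control libraries 1 to 3 and stood at 86.2, 87.6 and 65.0 FPKM in LIN28B KO libraries 1 to 3, with control library 2 the lowest control, as for IGLC1. For IGJ the nearest were RP11-274B21.4, TPRA1, COPA, LZTR1 and AIG1, with r of 0.986 to 0.993, and of 0.959 to 0.985 without that library.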

How the data were processed

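RNA sequencing tables of 6 libraries were used, with 3 libraries in each group. Group membership was read from the condition label, and titles supplied the replicate number. The submitters' processing notes name GRCh37, HTSeq, TopHat2 and cutadapt, without versions or roles. Expression was deposited by the authors as FPKM, per the file headers, each with its bounds and a status column; which program and gene annotation produced them is not stated there. Read numbers are not in the headers, so precision is described by the bounds. The 222 rows of 108 genes listed more than once were summed per gene, and 25 genes with a failed estimate in any library were left out. Starts were converted to 1-based positions.

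Tests across genes used limma 3.58.1 in R 4.3.3, with a variance trend, on log2(FPKM + 0.5) of 15803 genes with at least 1 FPKM in at least 3 libraries, with Benjamini-Hochberg adjustment over all of them and a threshold of 0.05. The filter was passed by 4 members. Shares and ratios were tested by exact permutation over libraries. The script was tested on simulated data. Named genes are the members, the leading V segments, up to 3 genes per list by p plus 2 by level, and the 5 most alike genes. Members and lists were chosen with earlier results of these data known. Alternatives were other pseudocounts, no filter, quantile and cyclic loess normalization, scaling to other genes, each library left out, and a replicate block. Values of some single genes of the lists are not reported here.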

Additional observations from a re-analysis of the deposited data

How the results depend on the processing

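No member passed the threshold in limma under any of the 16 other settings run, and the smallest adjusted p was 0.102, for IGJ after cyclic loess. Of 64 member fits under these settings, 8 changed sign. IGHD went from -0.21 to 0.12 with cyclic loess and to 0.11 with cyclic loess without LIN28B KO library 3. With 1 library left out, IGLC1 ranged from -0.046 to 0.30 and IGJ from -0.11 to 0.20. The sign of these small differences therefore depends on the scaling and on single libraries. The count of genes called over the whole table was 15, and it was 6 with no filter, 28 with quantile normalization, 111 with cyclic loess and 72 with cyclic loess without LIN28B KO library 3. With 1 library left out it ran from 4 (without LIN28B KO library 2) to 64 (without LIN28B KO library 3), and was 7 without LIN28B KO library 1; the cause was not tested. With the replicate number as a block it was 13. Over all tested genes same-numbered libraries did not deviate together (correlations of -0.021, 0.044 and -0.033). The row D86994.1, however, was lowest in library 2 of both groups. Correlations over all genes cannot show whether libraries of the same number shared a step, and the labels do not say. No member was called under the block. The difference in the IGLL5 to IGLC1 ratio ran from -0.0031 to 4.55e-05 with 1 library left out, changing sign without control library 2. The IGLC1 to IGHD and IGJ to IGHD ratios were higher in KO cells whichever library was left out, by 0.233 to 0.608 and by 0.173 to 0.271. Quantile normalization gives genes of the same rank the same value in every library. In libraries 1 to 3 of both groups IGHD ranked 4, 3 and 4. IGLC1 ranked 2, 1 and 2 there, and IGJ ranked 3, 2 and 3. Equal ranks in the 2 groups put these 3 genes at a log2 fold change of 0, so this setting cannot show a difference in them.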
